A study of Mus musculus with 9 samples.

Results

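Neurotransmitter receptor and synaptic genes were examined in activated mouse regulatory T cells (Tregs) of Ezh2-deficient and WT cultures. They were defined as the protein-coding genes whose symbols start with Gabr, Gria, Grid, Grik, Grin and a digit, Grm, Chrn, Syt, Nrxn, Nlgn or Gprin, together with Gad1 and Gad2, that had at least 10 counts summed over the 9 libraries. Of 95 protein-coding genes with such symbols, 37 met the count, 41 had no count in any library and 17 had fewer than 10 counts in all. The prefix Syt also takes in the synaptotagmin-like genes Sytl1 to Sytl5. These 37 genes stood among 43432 gene identifiers in the table.

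Tregs are the Foxp3-expressing CD4 T cells that restrain immune responses. All mice were C57BL/6 and carried a Foxp3-Cre-GFP allele and the Cre-activated reporter R26-LSL-RFP. The 4 Ezh2-deficient cultures came from Ezh2-fl/fl mice, and of the 5 WT cultures replicate 1 came from an Ezh2-fl/+ mouse and replicates 2 to 5 from Ezh2-+/+ mice. In all of them CD62L-high Tregs were sorted, stimulated on beads against CD3 and CD28 with 2000 U/ml IL-2, and RNA was taken at day 4. Because the Cre is driven by Foxp3, the deletion is restricted to cells that have expressed Foxp3. Total counts were 33718125 to 62201921 in the Ezh2-deficient and 32469450 to 59796319 in the WT libraries. Ezh2 transcript was at 153 to 167 CPM (counts scaled to library size and given per 1e6) in the Ezh2-deficient and 234 to 360 CPM in the WT libraries, and the library of the Ezh2-fl/+ mouse was at 268 CPM. Counts over the whole gene do not show how far the floxed part was deleted, and these data hold no measure of Ezh2 protein. Libraries also differed in a hypoxia response score over 24 genes, the mean of their log2 CPM. It was 6.29 to 6.59 in 5 libraries (Ezh2-deficient replicates 1 and 4, WT replicates 1, 2 and 4) and 5.07 to 5.18 in the other 4, and Cd8a, a gene of CD8 T cells, ranged from 28.3 to 97.6 CPM in the former and from 0.361 to 41.1 CPM in the latter. With this score as a covariate all 8 genes called below were called again.

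As background, synaptic transmission begins with vesicles that hold a transmitter such as GABA, glutamate or acetylcholine. Synaptotagmins act in the calcium-triggered fusion of these vesicles, and ligand-gated channels or G protein-coupled receptors on the next cell bind the transmitter. Neurexins and neuroligins hold the 2 sides of a synapse together. Outside the nervous system many of these genes are held silent by Polycomb repressive complex 2 (PRC2), of which Ezh2 is the catalytic subunit and which methylates histone H3 on lysine. T cells use relatives of the same machinery for the release of granules and cytokines, and receptors for GABA, glutamate and acetylcholine have been described on lymphocytes.

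In Ezh2-deficient Tregs the genes of both GABA-synthesising enzymes changed in opposite directions, with Gad2 9.49-fold higher and Gad1 2.72-fold lower. Sytl2, a Rab27 effector of granule docking, was 3.39-fold higher, the AMPA receptor gene Gria3 4.16-fold, Syt14 2.75-fold and the nicotinic receptor gene Chrna9 2.24-fold higher. Syt11 was 1.81-fold lower and Gprin3 1.35-fold lower. Most receptor subunit genes were at or near 0 in both groups. Of the 37 genes, 19 passed the filter on low counts and were tested, and 5 rose and 3 fell at an adjusted p below 0.05 (edgeR's quasi-likelihood test, Benjamini-Hochberg over all 13685 genes tested). That is 42.1% of those tested, against 21.9% of all genes tested (13.1% higher and 8.80% lower). The median log2 fold change of the 19 was -0.06 and that of all genes tested 0.00. A gene expressed in 1 group alone can pass the filter only through that group, so these shares describe the tested genes and not all 37.

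**Figure D1:**
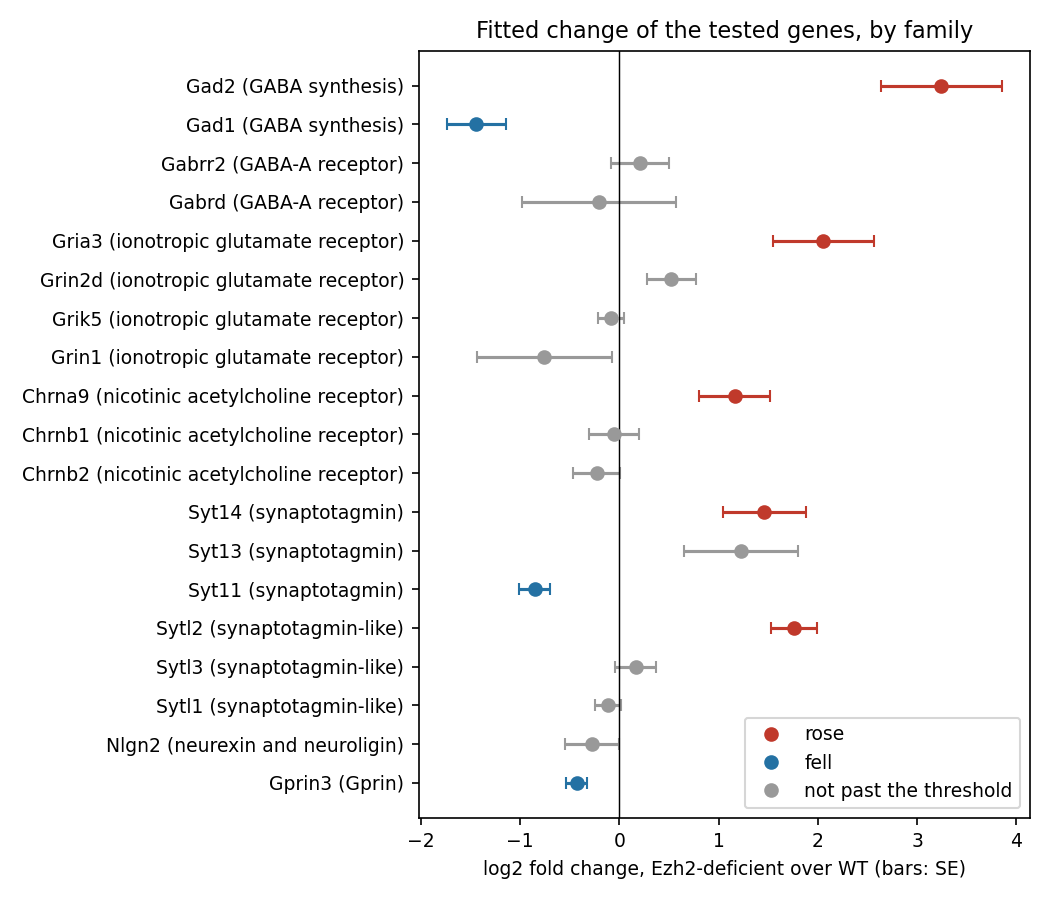
Fitted log2 fold change (Ezh2-deficient over WT, x axis) of the 19 tested genes, grouped by family, with bars of 1 standard error. The changes run from -1.44 for Gad1 to 3.25 for Gad2, and 11 of the 19 genes are not past the threshold.

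Glutamate decarboxylases turn glutamate into the inhibitory transmitter GABA. Gad2 (ENSMUSG00000026787; GRCm38 chromosome 2, 22622205 to 22693874) is best known from GABAergic neurons and pancreatic beta cells, where its product is an autoantigen of type I diabetes. It was at 19.0, 24.0, 29.1 and 21.5 CPM in Ezh2-deficient replicates 1 to 4 and at 0.795, 3.21, 0.660, 1.48 and 6.08 CPM in WT replicates 1 to 5. Every Ezh2-deficient library lay above every WT library, and WT replicate 5 was the highest of its group. The means were 23.4 ± 4.30 (SD, n = 4) and 2.44 ± 2.27 CPM (SD, n = 5), a log2 fold change of 3.25 (SE 0.61, adjusted p = 0.00705 in edgeR). Without WT replicate 5 the log2 fold change was 3.95 (adjusted p = 0.000465 in edgeR). Without the library richest in Cd8a of each group it was 3.15 and only just passed (adjusted p = 0.0467 in edgeR).

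Gad1 (ENSMUSG00000070880; chromosome 2, 70553072 to 70602014), which encodes the other isoenzyme, moved the opposite way. It was at 6.71, 9.32, 7.65 and 6.39 CPM in the Ezh2-deficient libraries and at 8.31, 29.9, 24.1, 19.1 and 20.8 CPM in WT replicates 1 to 5. The groups overlapped only through WT replicate 1, the Ezh2-fl/+ culture, which sat within the Ezh2-deficient range while the 4 Ezh2-+/+ cultures were all above it. The means were 7.52 ± 1.31 (SD, n = 4) and 20.4 ± 7.94 CPM (SD, n = 5), so that Gad1 fell by 1.44 on the log2 scale (SE 0.30, adjusted p = 0.00718 in edgeR). Without WT replicate 1 it fell by 1.65 (adjusted p = 0.000234 in edgeR). The same culture was not intermediate for Gad2, where its 0.795 CPM was among the lowest values. With replicate 4 of both groups left out, the libraries richest in Cd8a, Gad1 fell by 1.39 and no longer passed (adjusted p = 0.0504 in edgeR).

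**Figure D2:**
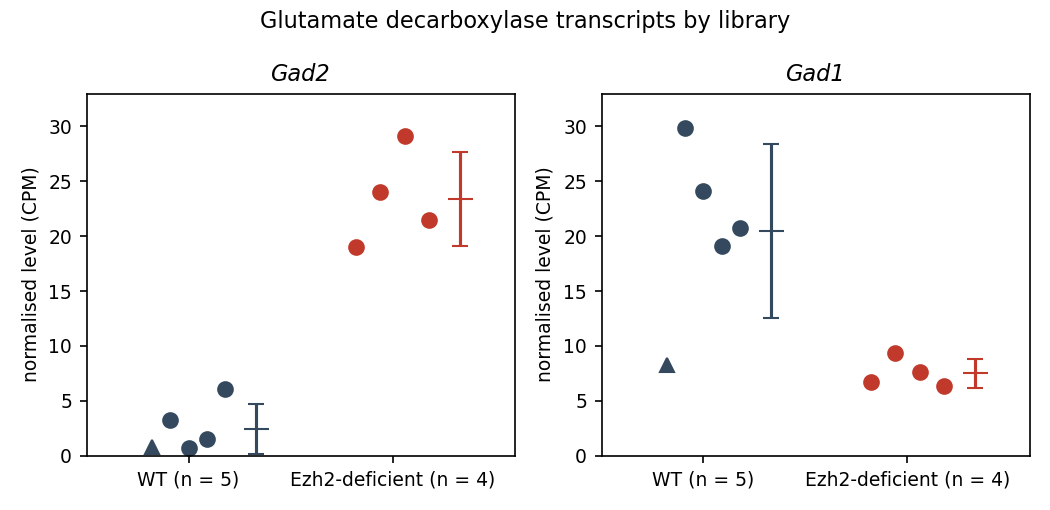
CPM of Gad2 (left) and Gad1 (right) in each library, with the mean and SD of each group beside the points and the Ezh2-fl/+ culture as a triangle. Gad2 lies between 19.0 and 29.1 in the Ezh2-deficient libraries and at most at 6.08 in WT, whereas Gad1 is at 19.1 to 29.9 in the 4 Ezh2-+/+ libraries and at 8.31 in the triangle.

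The promoters of the called genes are shown because PRC2 is known to bind CpG-rich starts. RefSeq windows (GRCm38.p6; from 250 bases before to 50 after the start) were found for 27 of the 37 genes and for 6 of the 8 called ones. The 250 bases before the start are printed 5′ to 3′ on the gene's strand with each CG dinucleotide in capitals, for the 2 decarboxylase genes and, as the richest and poorest in CG of the called ones, Syt14 and Chrna9. The coordinates are chr2:22622077-22622326 (plus strand) for Gad2, chr2:70561879-70562128 (plus) for Gad1, chr1:193035776-193036025 (minus) for Syt14 and chr5:65966874-65967123 (plus) for Chrna9.
Gad2: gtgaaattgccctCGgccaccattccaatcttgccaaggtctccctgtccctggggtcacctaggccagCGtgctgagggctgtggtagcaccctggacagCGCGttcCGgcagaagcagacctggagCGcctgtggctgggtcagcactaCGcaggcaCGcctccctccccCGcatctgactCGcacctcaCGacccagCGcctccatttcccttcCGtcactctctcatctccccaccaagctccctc
Gad1: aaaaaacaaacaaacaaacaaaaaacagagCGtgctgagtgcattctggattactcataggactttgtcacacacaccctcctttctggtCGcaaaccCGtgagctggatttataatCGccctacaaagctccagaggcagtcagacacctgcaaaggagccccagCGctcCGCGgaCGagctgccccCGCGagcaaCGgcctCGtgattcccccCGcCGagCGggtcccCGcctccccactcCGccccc
Syt14: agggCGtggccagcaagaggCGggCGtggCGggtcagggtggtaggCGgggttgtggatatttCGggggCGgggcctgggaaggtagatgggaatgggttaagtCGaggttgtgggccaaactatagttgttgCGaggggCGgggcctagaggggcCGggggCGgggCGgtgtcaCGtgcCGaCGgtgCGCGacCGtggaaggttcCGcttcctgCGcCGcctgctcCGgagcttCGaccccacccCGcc
Chrna9: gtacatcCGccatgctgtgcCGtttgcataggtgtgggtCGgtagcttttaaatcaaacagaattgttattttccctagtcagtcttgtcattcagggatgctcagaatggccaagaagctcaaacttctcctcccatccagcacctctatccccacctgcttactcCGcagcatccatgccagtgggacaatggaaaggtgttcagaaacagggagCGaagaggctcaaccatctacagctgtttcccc
Gad2 had 13 CG dinucleotides in this stretch, Gad1 17, Syt14 25 and Chrna9 5. Over the 300-base windows, 2 criteria were applied, more than 50% G and C and a ratio of observed to chance CG above 0.6. They were met by at least 1 window in 1 of 3 genes that rose (Syt14) and 2 of 3 that fell (Gad1 and Syt11). Of the tested genes 7 of 15 met them (46.7%), against 72.0% of the 10046 genes tested across the series that had a window. Genes that rose and fell across the series met them at 70.1% and 73.6%. For Gad1, Chrna9 and Syt11 the RefSeq start lay well inside the gene positions given in this report, so these windows are not at the outermost annotated start. Which start the T cells used was not measured, and CG content is a description of these windows.

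Genes of GABA-A receptors were at low or no counts. GABA-A receptors are ligand-gated chloride channels built of 5 subunits, and the genes of the subunits common in brain, the alpha, beta and gamma types, had no count in any library, which allows at most 0.00766 CPM over the series (3 counts). Of the 19 Gabr genes 15 were at 0 and 3 had at least 10 counts. Gabrr2, the rho subunit gene of retinal GABA receptors, was at 2.79, 1.14, 2.05 and 1.53 CPM in the Ezh2-deficient and at 1.44, 1.57, 1.32, 1.61 and 2.13 CPM in the WT libraries. These ranges overlapped and Gabrr2 did not pass (log2 fold change 0.21, SE 0.29, adjusted p = 0.639 in edgeR). Gabrd, the delta subunit gene, was under 1 CPM in all libraries (0.0846 to 0.406 against 0.0187 to 0.617 CPM; adjusted p = 0.877 in edgeR). Gabre had 16 counts, all of them in WT, but 10 came from WT replicate 2. WT replicate 1 was at 0 like the Ezh2-deficient libraries, so the groups overlapped. Fitted without the filter on low counts, Gabre did not pass (adjusted p = 0.0787 in edgeR).

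Glutamate receptors were represented by 4 channel genes. Gria3 (ENSMUSG00000001986; X chromosome, 41400854 to 41678601) encodes a subunit of AMPA receptors, the channels of fast excitatory transmission. It was at 1.64, 3.36, 3.16 and 1.20 CPM in the Ezh2-deficient and at 0.406, 0.617, 0.115, 0.476 and 1.14 CPM in the WT libraries. All Ezh2-deficient libraries exceeded all WT libraries, with WT replicate 5 just under the lowest of them. Gria3 rose by a log2 fold change of 2.06 (SE 0.51, adjusted p = 0.0137 in edgeR). Among libraries of high hypoxia score the means were 1.42 and 0.500 CPM, and among those of low score 3.26 and 0.628 CPM, which are ratios of 2.84 and 5.19. The other 3 AMPA receptor genes had no count.

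Grik5, the gene of a kainate receptor subunit that needs a partner to form a channel, was the glutamate receptor transcript with the highest level (29.2 ± 2.92 CPM, SD, n = 4, against 30.9 ± 5.37 CPM, SD, n = 5). Its log2 fold change of -0.08 (SE 0.13, adjusted p = 0.680 in edgeR) did not pass. Of the NMDA receptor genes, the obligatory subunit gene Grin1 and Grin2d were tested. Grin1 was at 1.13, 0.274, 0.181 and 2.63 CPM against 1.17, 2.68, 1.0, 3.12 and 1.20 CPM, with a log2 fold change of -0.76 (adjusted p = 0.450 in edgeR). Its 2 lowest values came from Ezh2-deficient replicates 2 and 3, the low hypoxia score libraries of that group, and with the score as a covariate the change was -1.16 (adjusted p = 0.0719 in edgeR). Without Ezh2-deficient replicate 4, the highest of its group, it was -1.81 (adjusted p = 0.0704 in edgeR). Grin2d was at 4.61 ± 1.86 (SD, n = 4) against 3.20 ± 0.488 CPM (SD, n = 5), a log2 fold change of 0.52 (adjusted p = 0.147 in edgeR). Both genes share exon bases with an antisense gene. Of the metabotropic receptors, which couple to G proteins, Grm6 had 28 counts and Grm8 had 10, and 5 of 8 had none.

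Nicotinic acetylcholine receptors are cation channels, and 5 of their 16 genes reached 10 counts. Chrna9 (ENSMUSG00000029205; chromosome 5, 65934921 to 65977326), the gene of an alpha subunit of cochlear hair cells, was at 1.92, 1.10, 0.994 and 1.58 CPM in the Ezh2-deficient and at 0.795, 0.309, 0.488, 0.582 and 0.898 CPM in the WT libraries. The lowest Ezh2-deficient library stood above the highest WT library by a small margin. Chrna9 rose by a log2 fold change of 1.16 (SE 0.36, adjusted p = 0.0360 in edgeR). Chrna9 no longer passed when 1 of 5 libraries was left out (WT replicate 2, 3 or 4 and Ezh2-deficient replicate 1 or 4) or both libraries richest in Cd8a (adjusted p = 0.0692 to 0.133 in edgeR, with a log2 fold change of 0.95 to 1.14). The muscle-type subunit gene Chrnb1 (3.58 ± 1.26 CPM, SD, n = 4, against 3.75 ± 0.83, SD, n = 5) and the neuronal-type Chrnb2 (2.43 ± 0.365 against 2.84 ± 0.707 CPM) did not pass (adjusted p = 0.899 and 0.502 in edgeR). Chrnb2 shares 1365 exon bases with Adar on the opposite strand, and the strand setting of the counting is not given in the sources used here.

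The families of vesicle proteins held the highest levels. Synaptotagmin-like proteins bind Rab27 on secretory granules and melanosomes, and Sytl2 is known from the docking of lytic granules in cytotoxic T cells. Sytl2 (ENSMUSG00000030616; chromosome 7, 90302252 to 90410719) was at 92.5, 129, 145 and 113 CPM in the Ezh2-deficient and at 33.5, 30.4, 34.7, 22.5 and 55.9 CPM in the WT libraries. The groups were far apart, with WT replicate 5 again the highest WT library. Sytl2 rose from 35.4 ± 12.4 (SD, n = 5) to 120 ± 22.4 CPM (SD, n = 4), a log2 fold change of 1.76 (SE 0.23, adjusted p = 0.000713 in edgeR), the smallest adjusted p among the 19. Its ratio was 3.58 among libraries of high and 3.02 among those of low hypoxia score. The relatives Sytl1 (44.0 ± 9.16 CPM, SD, n = 4, against 47.8 ± 4.38, SD, n = 5) and Sytl3 (6.63 ± 1.91 against 5.94 ± 0.862 CPM) did not pass (adjusted p = 0.546 and 0.595 in edgeR). For Sytl1 the 2 Ezh2-deficient libraries of high hypoxia score were at 33.9 and 38.7 CPM and the 2 of low score at 50.7 and 52.8 CPM.

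Syt11 (ENSMUSG00000068923; chromosome 3, 88744700 to 88775164), a synaptotagmin that does not bind calcium and is known to restrain membrane traffic and cytokine secretion, was the most highly expressed synaptotagmin. It was at 56.4, 48.7, 40.04 and 73.2 CPM in the Ezh2-deficient and at 106, 106, 80.1, 106 and 96.3 CPM in the WT libraries. All Ezh2-deficient libraries were below all WT libraries, and in both groups the libraries of low hypoxia score were the lower ones. Syt11 fell by 0.86 on the log2 scale (SE 0.16, adjusted p = 0.00287 in edgeR).

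Syt14 (ENSMUSG00000016200; chromosome 1, 192891233 to 193035775), another calcium-independent synaptotagmin, was at 0.620, 1.48, 0.692 and 0.862 CPM against 0.338, 0.154, 0.230, 0.529 and 0.393 CPM. The groups did not overlap, and Syt14 rose by a log2 fold change of 1.46 (SE 0.42, adjusted p = 0.0273 in edgeR). It missed the threshold when WT replicate 2 or 3 was left out, and likewise without Ezh2-deficient replicate 2 or 4 (adjusted p = 0.0521 to 0.0906 in edgeR, with a log2 fold change of 1.10 to 1.47). Syt13 was at 0.987, 4.48, 2.41 and 0.650 against 1.69, 1.17, 0.775, 0.476 and 0.411 CPM and did not pass (log2 fold change 1.22, SE 0.57, adjusted p = 0.144 in edgeR; 0.53 without Ezh2-deficient replicate 2). Its 2 high values were those of the Ezh2-deficient libraries with a low hypoxia score, where the ratio to WT was 5.8, against 0.735 among those of high score.

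**Figure D3:**
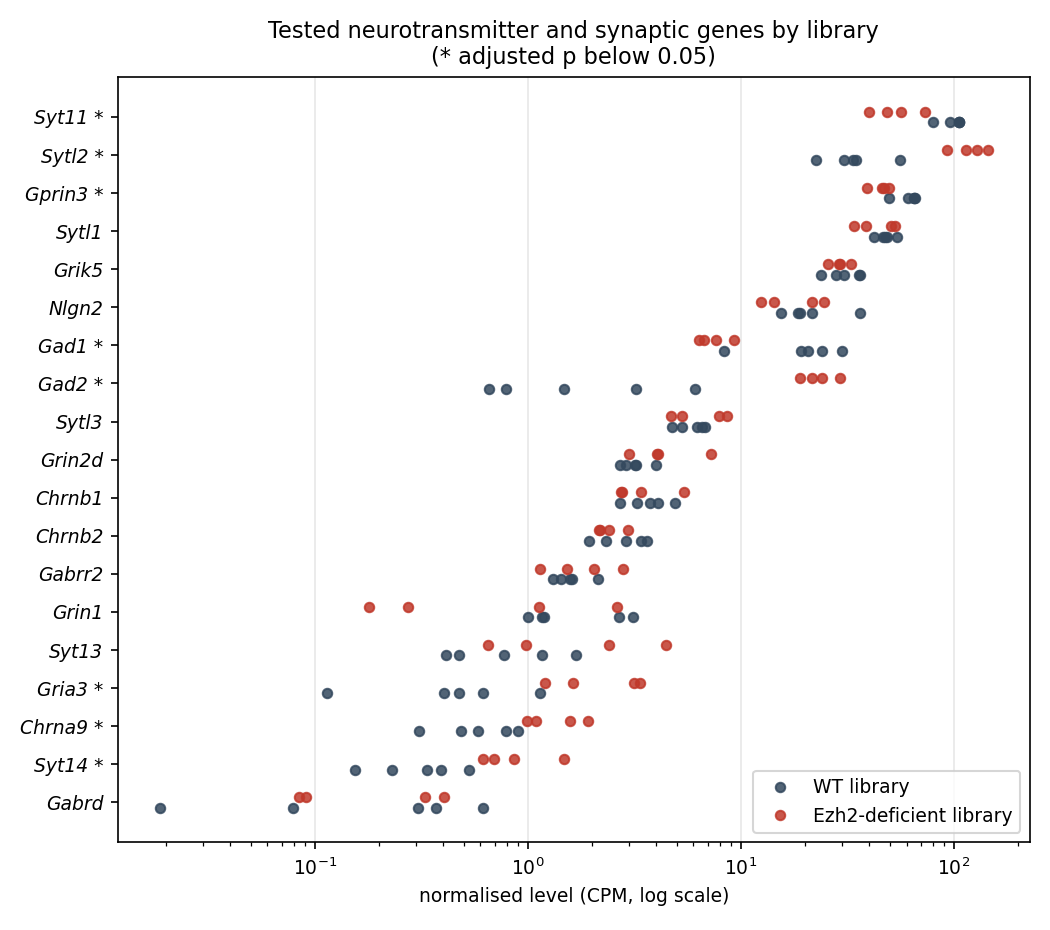
CPM on a log axis in each of the 9 libraries (WT dark, Ezh2-deficient red) for the 19 tested genes, ordered by mean level, with called genes starred. Gad2 and Sytl2 show the clearest separation, Gad1 overlaps through 1 WT library, and Grin1 and Syt13 spread widely among the Ezh2-deficient libraries.

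Of the adhesion molecules, the neuroligin gene Nlgn2, whose product organises inhibitory synapses, was at 18.2 ± 5.77 (SD, n = 4) against 22.1 ± 8.23 CPM (SD, n = 5) and did not pass (log2 fold change -0.28, adjusted p = 0.493 in edgeR). The neurexin genes Nrxn2 and Nrxn3 had 19 and 35 counts in all. Gprin3 (ENSMUSG00000045441; chromosome 6, 59347226 to 59426294) belongs to a small family of proteins that bind activated G proteins and act in neurite growth. It was at 45.9, 39.2, 47.2 and 49.4 CPM in the Ezh2-deficient and at 49.6, 65.1, 65.8, 64.8 and 61.2 CPM in the WT libraries. The lowest WT value, that of the Ezh2-fl/+ culture, exceeded the highest Ezh2-deficient value by less than 1 CPM. Gprin3 fell by 0.43 on the log2 scale (SE 0.10, adjusted p = 0.0117 in edgeR), and by 0.51 without WT replicate 1. Across all tested genes of these families the groups did not overlap for 7 of 19 (5 with Ezh2-deficient above, 2 below), against 21.2% of all genes tested (12.5% above and 8.69% below).

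Levels between genes were compared per length, as CPM per kilobase of merged exons (RPKM). In WT Tregs Syt11 (19.0 RPKM) and Sytl1 (19.0 RPKM) led, followed by Gprin3 (7.35), Grik5 (5.98) and Nlgn2 (3.83 RPKM). In Ezh2-deficient Tregs the order was Sytl1 (17.5 RPKM), Syt11 (10.5), Sytl2 (8.60), Grik5 (5.64) and Gprin3 (5.45 RPKM), and Gad2 (3.98 RPKM) followed. Gad2 stood at 0.416 RPKM in WT, below Gad1 at 2.68 RPKM. Among the called receptor genes Gria3 reached only 0.237 RPKM and Chrna9 0.461 RPKM in Ezh2-deficient cells. In bulk RNA, a change in the number of cells that express such a gene and a change in RNA per cell cannot be told apart.

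The other 18 genes were below the filter on low counts and are given as counts. Gprin2 had 16, 1, 6, 15 and 2 counts in WT replicates 1 to 5 and none in any Ezh2-deficient library. Its level was 10.7-fold lower when a floor of 3 counts was set for the Ezh2-deficient group. The 95% counting interval of the ratio, Ezh2-deficient over WT, was 0 to 0.121. Syt17 had 5, 4, 13, 8 and 2 counts in the WT libraries and 1 in all in the Ezh2-deficient ones, a ratio of 0.0391 (95% counting interval 0.00096 to 0.234). Syt15 had 81 counts in WT and 10 in Ezh2-deficient libraries, and every WT library lay above every Ezh2-deficient library in CPM. The margin was very small, between WT replicate 4 (0.132 CPM, 5 counts) and Ezh2-deficient replicate 4 (0.130 CPM, 8 counts). Gprin2 and Syt15 are neighbours on chromosome 14 (34185688 to 34201653 and 34219595 to 34230420), transcribed away from each other from starts 17942 bases apart. In the opposite direction, Syt6 had 10, 6, 4 and 10 counts in the 4 Ezh2-deficient libraries against 2, 0, 1, 1 and 1 in WT replicates 1 to 5. Its ratio was 7.51 (95% counting interval 2.88 to 24.8). Syt16 had 11 counts against 0, but Ezh2-deficient replicate 1 was also at 0, so the groups overlapped. It did not pass in the fit without a filter (adjusted p = 0.0745 in edgeR). Nlgn3 (69 against 43 counts), Syt12 (71 against 65), Syt5 (56 against 43), Chrne (23 against 25) and Nrxn3 (18 against 17) overlapped between the groups. Of the genes named in this paragraph, Nlgn3 shares 3823 exon bases with Gm21986 on the same strand. On the opposite strand Syt12 shares 950 with A930001C03Rik, Syt6 505 with Atg4a-ps, Nrxn3 439 with Gm37980 and Syt16 183 with Gm29587. Grm6 and Nrxn2 also share opposite-strand exon bases with other genes. The counts of all these genes are therefore uncertain. Fitted without a filter, 3 of the 18 passed (16.7%), all lower (Gprin2, Syt15 and Syt17; adjusted p = 0.0140, 0.0372 and 0.0352 in edgeR), against 12.3% of all 22839 genes with a count (5.24% lower). DESeq2 gave an adjusted p for 10 of the 18 and called the same 3 and Syt6 (adjusted p = 0.0280), against 24% of the 16182 genes with one.

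**Figure D4:**
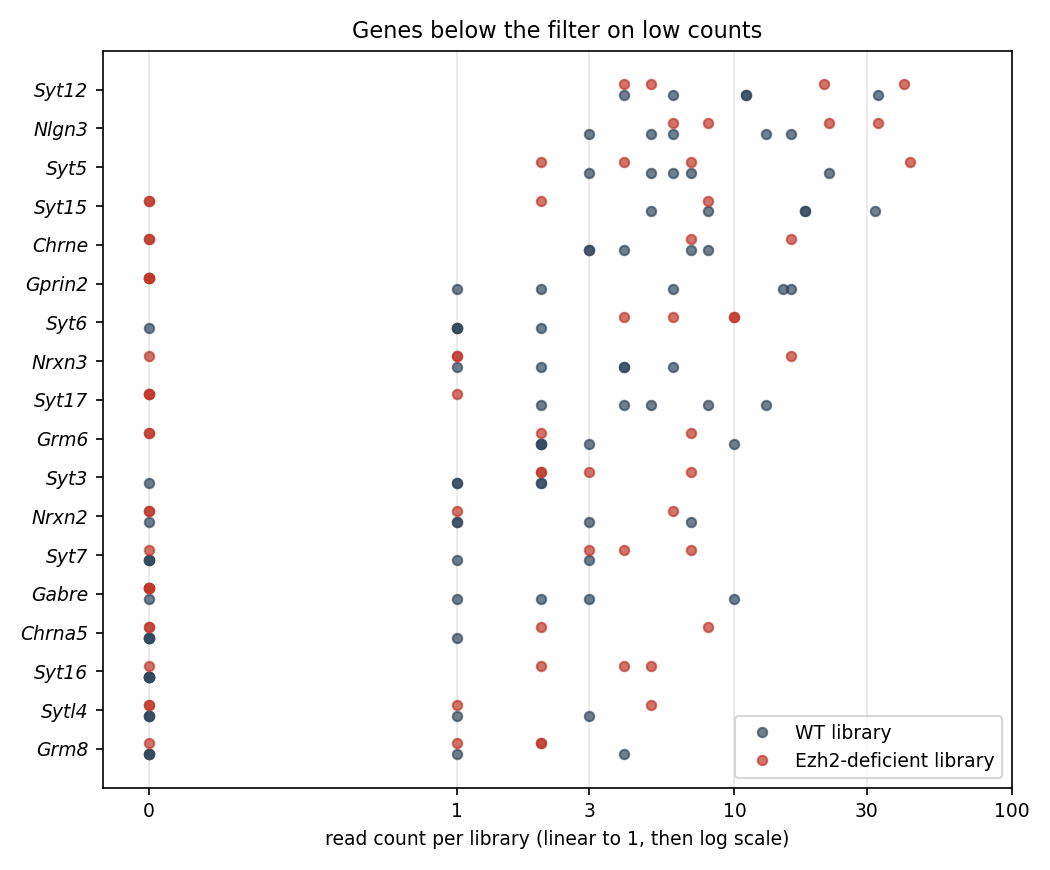
Read counts per library (linear to 1, then log scale) of the 18 genes below the filter, WT dark and Ezh2-deficient red, ordered by total count. Darker points are libraries that coincide. Gprin2 is at 0 in all 4 Ezh2-deficient libraries and Syt6 at 4 to 10 there, against at most 2 in WT.

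Other genes of the synapse were taken from lists by function. Of 29 tested genes of vesicle release, 10 rose and 2 fell (41.4%, against 21.9% of all genes tested). Snap23, a SNARE of exocytosis outside neurons, rose to 142 ± 7.66 from 64.5 ± 12.7 CPM, the vesicle membrane gene Syp to 61.6 ± 16.8 from 18.9 ± 4.39 CPM, and the vesicle glycoprotein gene Sv2b to 3.97 ± 1.69 from 0.216 ± 0.295 CPM (SD, n = 4 and n = 5; log2 fold change 1.14, 1.71 and 4.10; adjusted p = 0.000116, 0.000272 and 0.00335 in edgeR). For Sv2b 39 of the 53 WT counts came from WT replicate 5, and without it the log2 fold change was 5.48. Of 14 tested genes of transmitter synthesis, transport and breakdown, 5 rose and 1 fell (42.9%). The vesicular glutamate transporter genes Slc17a8 and Slc17a7 rose by log2 fold changes of 2.76 and 1.61, to 30.5 ± 7.08 from 4.46 ± 1.96 CPM and to 4.06 ± 1.31 from 1.33 ± 0.189 CPM (adjusted p = 0.000466 and 0.000987 in edgeR). Slc1a5, a glutamine transporter of the plasma membrane, fell by 0.42 (adjusted p = 0.00923 in edgeR). The vesicular GABA transporter gene Slc32a1 had no count, and Abat, which breaks GABA down, was at 0.751 ± 0.436 against 0.447 ± 0.187 CPM (adjusted p = 0.231 in edgeR); both were picked from the list after their values were seen, as partners of the decarboxylases.

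Of 22 tested postsynaptic scaffold genes, 8 rose and 0 fell (36.4%). They included Magi3, Homer1 and Dlg1, scaffolds with known roles in many tissues (log2 fold change 0.87, 0.61 and 0.55; adjusted p = 8.5e-05, 0.00181 and 0.0028 in edgeR). Of 10 tested synaptic adhesion partners 3 rose and 1 fell, 4 of 10 in all. The receptor phosphatase gene Ptprs fell by 0.95, whereas Flrt3 and the latrophilin gene Adgrl2, whose products bind each other, rose by 1.74 and 2.31 (adjusted p = 0.00334, 0.0124 and 0.0130 in edgeR). Without WT replicate 5 the log2 fold change of Adgrl2 was 3.06. Of 13 tested auxiliary and assembly proteins 3 rose and 0 fell (23.1%), namely Lynx1, a modulator of nicotinic receptors, Cnih2, an AMPA receptor partner, and Gabarapl1 (log2 fold change 1.01, 1.06 and 0.36; adjusted p = 0.00314, 0.0133 and 0.0328 in edgeR). Of 7 other transmitter receptors tested, 2 rose and 0 fell (28.6%), among them the metabotropic GABA receptor gene Gabbr1 by 0.48 (adjusted p = 0.0294 in edgeR). Gabbr1 lost its call in 8 of 19 alternatives, Gabarapl1 in 9 and Cnih2 in 2. The medians of the 6 lists lay between 0.14 and 0.37 on the log2 scale, against 0.00 for all genes tested. Here too a gene expressed in 1 group alone can pass the filter only through that group. The shares and medians of the lists therefore describe their tested genes and not all genes listed. Of 24 hypoxia response genes 1 rose and 0 fell (4.17%), namely Bhlhe40 (log2 fold change 0.48, adjusted p = 0.0397 in edgeR, lost in 10 of 19 alternatives).

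**Figure D5:**
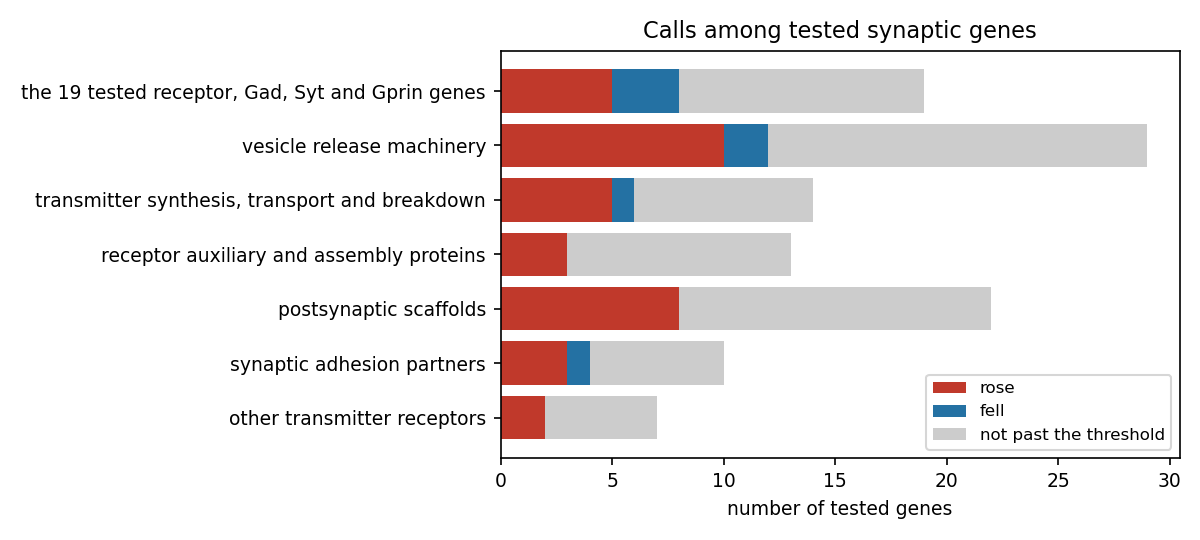
Number of tested genes that rose (red), fell (blue) or did not pass (grey) among the 19 genes of the receptor, decarboxylase, synaptotagmin, adhesion and Gprin families and in 6 lists of other synaptic genes. Of the scaffold genes 8 rose and 0 fell.

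Markers of other cells were read beside these results. Of 11 neuronal markers, Gad2 and Syp rose, while Rbfox3 and Elavl4 were at 0 and Snap25 and Nefl had 1 count each. The 9 markers other than Gad2 and Syp summed to 1.16 to 2.36 CPM in the Ezh2-deficient and 1.004 to 2.39 CPM in the WT libraries. Of 8 glial markers 4 were at 0, and Mbp, which T cells also express, rose by 0.28 on the log2 scale. Foxp3 was at 1647 to 1968 against 1293 to 1542 CPM. Among myeloid markers Itgam and Adgre1 rose (0.80 and 1.75), with the 6 genes summing to 22.8 to 30.5 against 11.5 to 19.4 CPM, while Lyz2 and Csf1r had 16 and 19 counts in all. Hba-a1 rose from 1.72 to 5.66 CPM, and the B cell gene Cd79a fell from 2.33 to 0.885 CPM. NK cell markers summed to 0.0903 to 9.36 against 2.72 to 5.69 CPM. The part of such cells in the changes of the 37 genes was not tested.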

How the data were processed

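The authors deposited counts per Ensembl gene for the 9 libraries, whole numbers that were not normalized. Per the labels' protocols, libraries were made with a stranded mRNA kit (Illumina TruSeq), and per the submitters' processing notes STAR and GRCm38 were used. Which tool counted the reads, with which strand setting and annotation, is not given in the sources used here. Symbols, biotypes, positions and exon lengths came from GENCODE M21 (GRCm38), in which 42548 of 43432 identifiers were found. Promoter windows came from RefSeq (GRCm38.p6).

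Library sizes were TMM-scaled, and counts were filtered with edgeR's default filter on low counts (13685 of 22839 genes with a count) and tested with edgeR's robust quasi-likelihood test (edgeR 4.0.16, R 4.3.3), two-sided, with Benjamini-Hochberg adjustment over all genes tested and a threshold of 0.05. The SE is the log2 fold change divided by the root of F. The series' text calls the samples biological replicates, and no pair of libraries agreed within counting noise (smallest chi-square per degree of freedom 21.9). Intervals and floors (3 counts) were taken from counts pooled over libraries. They cover counting error only and leave out the spread between libraries. No molecular identifiers are named in the labels. Ratios of low counts have exact 95% intervals.

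Alternatives were other scalings, filters, DESeq2 1.42.0, limma-voom (limma 3.58.1), the replicate number as a block, the hypoxia score as a covariate, and fits without single libraries or without the highest Cd8a library of each group. The p-values measure the spread between these samples only. The genes and lists were chosen with earlier results of these data known. Named genes were Gad1, Gad2, Ezh2, the called genes, the highest gene of each family, genes below the filter with at least 30 counts, and up to 3 called genes of each list. Gabre, Gabrd, Grm8, Grin1, Grin2d, Chrnb2, Sytl1, Sytl3, Syt13, Syt16 and Nrxn2 were named outside that rule. Some results are not reported here.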

Additional observations from a re-analysis of the deposited data

Results flagged for a closer look

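Among the 19 tested genes and Ezh2, 40 groups of libraries were searched for a library far from the others, and 1 was found, fewer than the 1 in 20 groups that chance gives. Gprin3 stood at 49.6 CPM in WT replicate 1, the Ezh2-fl/+ culture, whereas the other 4 WT libraries were at 61.2 to 65.8 CPM.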

How the results depend on the processing

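Gad2, Sytl2, Syt11, Gria3 and Gprin3 kept their direction and passed in all 19 alternatives (largest adjusted p 0.0467, 0.0041, 0.0107, 0.0439 and 0.0284), and Gad1 in 18 of 19. Chrna9 passed in 12 of 18 and Syt14 in 13 of 18, where the 18 leave out the filter of 1 CPM in 4 libraries, which removes both genes and left 3 genes of the families higher. Lower genes of the families numbered 6 of 37 with no filter (5.24% of all genes) and 6 of 29 with DESeq2 (10.9% of all genes with an adjusted p), in place of 3 of 19 (8.8%). Leaving out each library in turn gave 3 to 5 higher and 3 to 4 lower genes of the families. Over all genes it gave 1972 to 3168 calls, 1170 to 1744 higher and 802 to 1477 lower, with the lowest count without Ezh2-deficient replicate 3. Without both libraries richest in Cd8a 663 genes were lower, in place of 1204.

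Genes that did not pass changed sign in some fits. With limma-voom the log2 fold change was 0.26 for Gabrd and 0.011 for Chrnb1. Without single libraries it ran from -0.72 to 0.26 for Gabrd, from -0.35 to 0.059 for Chrnb1, from -0.071 to 0.36 for Gabrr2 and from -0.013 to 0.27 for Sytl3. Without both libraries richest in Cd8a it was 0.031 for Grik5. The cause was not tested.

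Same-numbered libraries did not vary together throughout (correlations of deviations across genes 0.15, -0.08, 0.11 and 0.19, and 0 of 4 matched their own number best). Each Ezh2-deficient library matched best a WT library on its own side of the hypoxia score. These correlations therefore cannot decide whether same-numbered cultures were paired. Replicates 1, 3 and 4 lay on the same side of that score in both groups, and replicate 2 did not. Replicate 4 was the richest in Cd8a in each group. With the replicate number as a block, which drops WT replicate 5, 2767 genes and 7 of the 8 family genes passed, without Syt14 (adjusted p = 0.0706 in edgeR). Depth limits the 18 genes below the filter, of which 10 had an adjusted p in DESeq2.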

Other observations

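Added after the values of both genes had been seen, the Gad1 and Gad2 levels were summed per exon length in each library. The sum was 4.12, 5.31, 5.95 and 4.49 RPKM in Ezh2-deficient replicates 1 to 4 and 1.22, 4.46, 3.27, 2.76 and 3.75 RPKM in WT replicates 1 to 5. The means were 4.97 ± 0.823 (SD, n = 4) and 3.09 ± 1.22 RPKM (SD, n = 5), and the groups overlapped through Ezh2-deficient replicate 1 and WT replicate 2. Gad2 made up 77.0 to 83.2% of the sum in the Ezh2-deficient and 3.43 to 27.6% in the WT libraries, with WT replicate 5 at the upper end.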
